A study of Homo sapiens with 4 samples.

Results

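The genes described here are 10 genes of the neuronal cytoskeleton that are used as markers of neuronal identity and maturity, NEFL, NEFM, NEFH, INA, PRPH, TUBB3, MAP2, MAPT, DCX and STMN2. They were taken by symbol from the 36601 features of each count matrix, and all 10 had counts in the enteric neurons of every sample. The matrices hold single-nucleus RNA sequencing (snRNA-seq) of enteric ganglioids, which are free-floating aggregates of neurons and their precursors made from human embryonic stem cells through an enteric neural crest stage. There were 2 control samples and 2 samples given PP121, an inhibitor of receptor tyrosine kinases, at 2 µM from day 15 to day 20. All 4 were stage 1 ganglioids kept in medium with GDNF. The labels number the replicates by differentiation, and all samples came from the stem cell line H9. The deposited annotation dates replicate 1 of both groups to day 42 (D42) and replicate 2 to day 38 (D38), so the dated day and the differentiation cannot be told apart. The study's text names another day for the ganglioids it sequenced, and whether these dates are days of collection is not stated.

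Neurofilaments are built from the light, medium and heavy chains NEFL, NEFM and NEFH together with INA (alpha-internexin) or, in peripheral neurons, PRPH (peripherin), and they fill and widen axons as neurons mature. TUBB3 is the neuronal beta-tubulin, and MAP2 and MAPT (tau) bind microtubules in dendrites and axons. DCX (doublecortin) stabilises microtubules in migrating and young neurons, and STMN2 regulates microtubule growth in extending axons. A less mature neuron would classically hold more DCX and STMN2 and less neurofilament, so the question put to these data was whether neurons of PP121 samples, or of the D38 samples, had that profile.

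Of 25306 deposited nuclei, 14812 carry a cell class and were used, between 2912 and 4587 per sample, with 23348045 to 34123759 UMIs (unique molecular identifiers, the counted RNA molecules) per sample. Enteric neurons numbered 2301 (replicate 1) and 1250 (replicate 2) in control ganglioids and 2030 and 976 in PP121 ganglioids, with a median of 7210 to 8102 UMIs per nucleus. Pairs of samples shared 4 to 15 cell barcodes. Levels are given as CPM, the UMIs of a gene scaled to the same total of UMIs in each class and sample. CPM is not scaled to gene length, so levels are compared between samples and classes and not between genes. Replicate 2 of both groups held more mesenchymal nuclei, 408 and 422 against 40 and 33 in replicate 1.

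The members marked the annotated neurons, with NEFH as the exception. DCX and MAPT were among the genes with which the study annotated its classes. The clusters drew on variable genes of the same nuclei, and whether each member was among them is not stated, so these differences are descriptions. In each of the 4 samples, 8 of the 10 members were higher in enteric neurons than in every other class with counts, the other 2 being NEFM and NEFH. DCX was 5.42 to 8.96 times higher in neurons than in progenitor 1 and STMN2 4.52 to 10.7 times higher. Neurons held 85.3% to 88.3% of all STMN2 UMIs of a sample while making up 33.5% to 53.7% of its annotated nuclei. INA was 3.13 to 8.91 times higher in neurons than in progenitor 1.

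MAP2 was the broadest of the microtubule genes, 2.24 to 3.29 times higher in neurons than in progenitor 1 and only 1.63 to 2.12 times higher than in progenitor 2. NEFM was 2.13 to 5.94 times higher in neurons than in progenitor 1, yet it was higher in neurons than in the class annotated as unknown in 3 of 4 samples. The unknown class had 30.8 CPM of NEFM in control replicate 1, where neurons had 27.5. NEFH did not follow the neurons: its level in neurons was 0.417 to 1.40 times that in progenitor 1, and neurons held 41.8% to 66.2% of its UMIs.

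**Figure D1:**
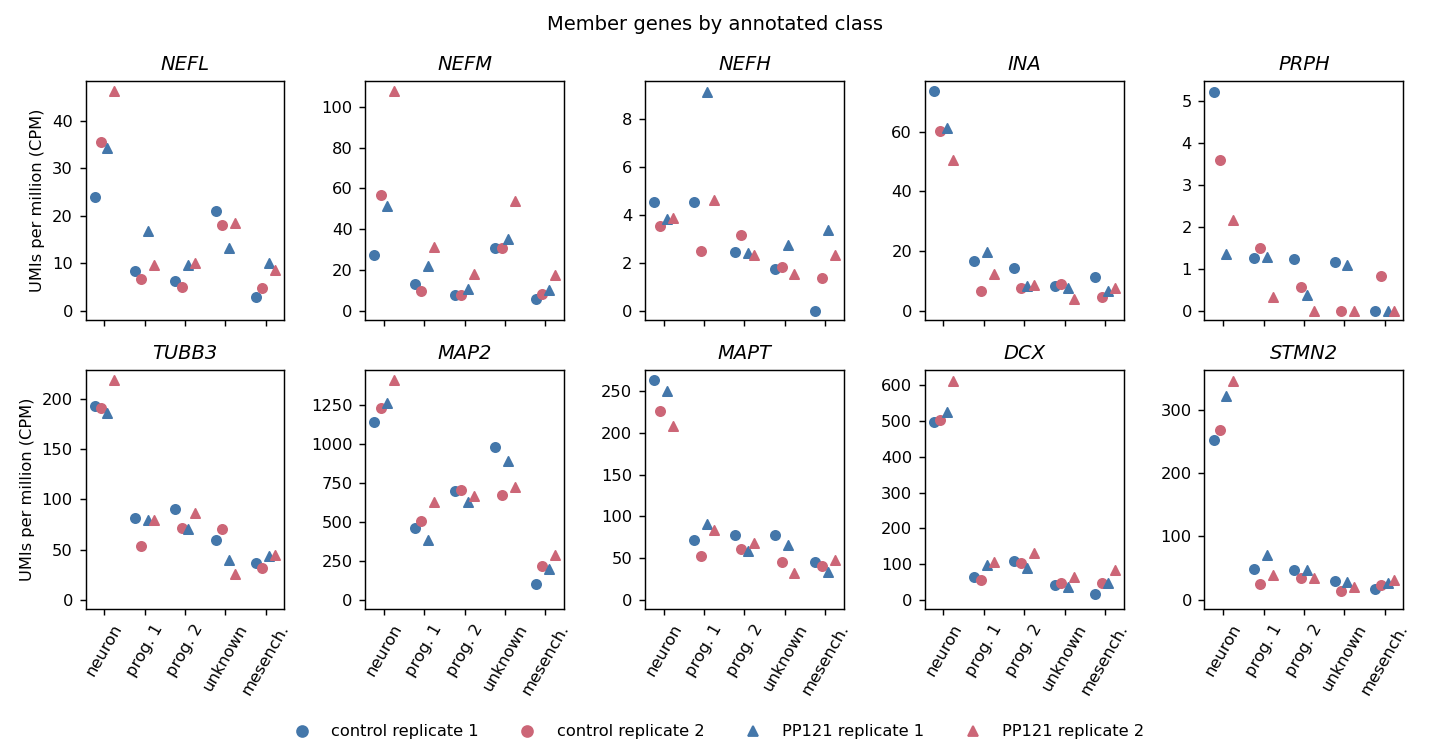
Each panel shows a member gene, with the annotated class on the horizontal axis and the level in CPM on the vertical axis; points are the 4 samples (circles control, triangles PP121, blue replicate 1, red replicate 2). DCX, STMN2 and INA were high in neurons and low elsewhere, whereas NEFH in PP121 replicate 1 was higher in progenitor 1 (9.11 CPM) than in neurons (3.80 CPM).

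In neurons, the neurofilament genes NEFM and NEFL had higher levels in the PP121 sample of each day, PRPH had lower levels, and STMN2 was higher, whereas TUBB3, MAPT and NEFH differed little. NEFM measured 27.5 CPM in control replicate 1, 56.6 in control replicate 2, 51.4 in PP121 replicate 1 and 108 CPM in PP121 replicate 2, an order kept for the pairs of values below. The groups overlapped, because control replicate 2 lay above PP121 replicate 1, but within each day the PP121 sample was higher, 1.87-fold on D42 and 1.90-fold on D38. NEFL, its partner chain, measured 24.0 and 35.4 CPM in control and 34.2 and 46.1 CPM in PP121 samples, 1.42-fold and 1.30-fold higher with PP121 on the 2 days. The third chain, NEFH, was sparse, with 34 to 86 UMIs per sample and levels of 4.54 and 3.52 CPM in control and 3.80 and 3.88 CPM in PP121 samples. INA went the other way from NEFM, with 73.6 and 60.3 CPM in control and 61.4 and 50.7 CPM in PP121 samples.

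PRPH, the filament protein of peripheral neurons, rested on few molecules: 99 and 40 UMIs in control neurons and 23 and 19 UMIs in PP121 neurons. These gave 5.22 and 3.61 CPM in control and 1.37 and 2.17 CPM in PP121 samples, and the groups did not overlap. STMN2 measured 253 and 268 CPM in control and 321 and 346 CPM in PP121 neurons, apart and 1.27-fold and 1.29-fold higher with PP121 on D42 and D38. DCX was 498 and 503 CPM in control against 526 and 612 CPM in PP121 neurons.

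MAP2, a protein of dendrites, was 1140 and 1227 CPM in control and 1261 and 1404 CPM in PP121 neurons, again without overlap. TUBB3 stood at 193 and 191 CPM in control and 186 and 219 CPM in PP121 neurons. MAPT stood at 263 and 226 CPM in control and 249 and 208 CPM in PP121 neurons. In all, 4 of 10 members had groups that did not overlap, MAP2, DCX and STMN2 above and PRPH below, against 45.1% of all 21243 genes tested (19.7% above and 25.4% below), so this count is close to the background.

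**Figure D2:**
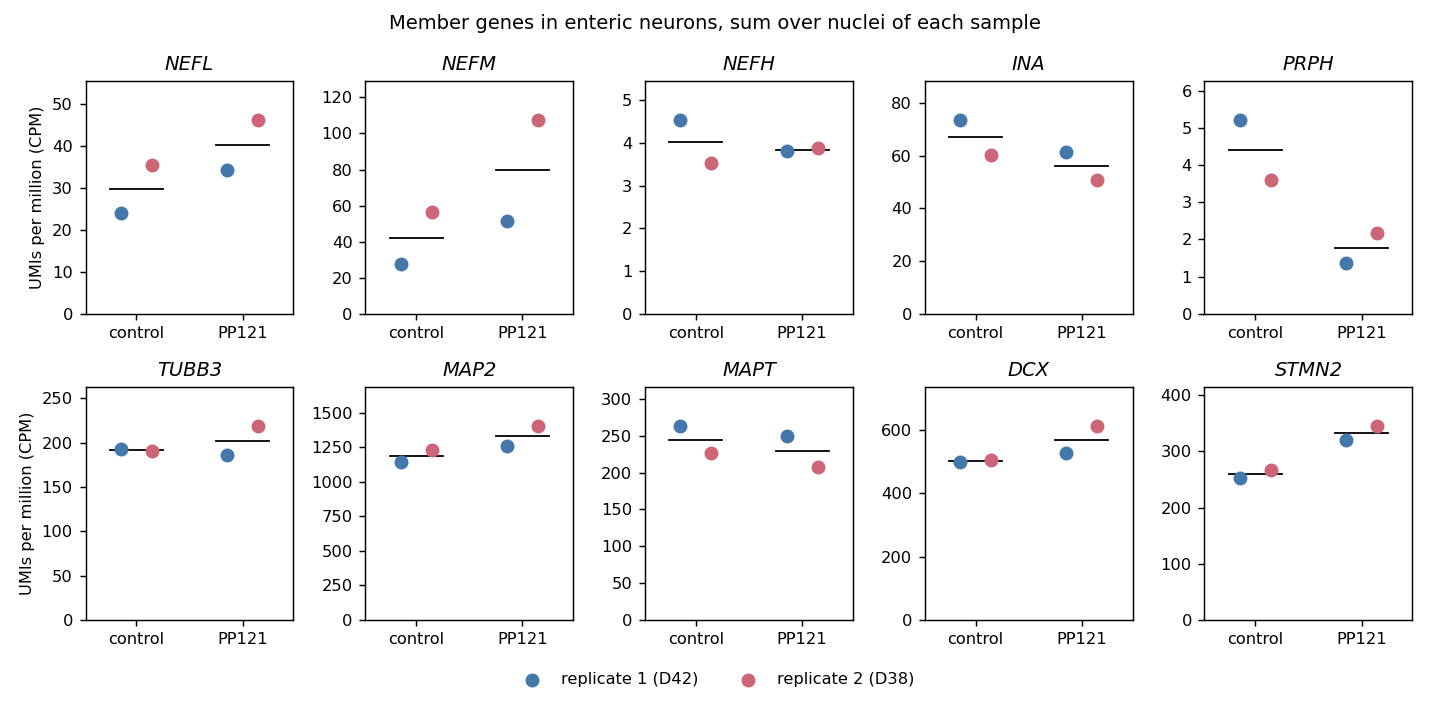
Levels in CPM in enteric neurons for each member, with control on the left and PP121 on the right of each panel; blue is replicate 1 (D42), red is replicate 2 (D38), and the black line is the mean of a group. NEFM and NEFL had the higher level with PP121 on both days and on D38 in both treatments, and PRPH was lower in both PP121 samples.

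With 2 samples per group and no term for the day, no gene was called at an adjusted p under 0.05 (0% of 21243 genes, edgeR quasi-likelihood test with Benjamini-Hochberg adjustment), no member among them. At an unadjusted p under 0.05 there were 2549 genes (12%) and 2 members, PRPH and STMN2, while DESeq2 called 102 genes and no member. In that fit the log2 difference of NEFM was 0.96 ± 0.44 (SE, adjusted p = 0.437) and that of PRPH was −1.34 ± 0.38 (adjusted p = 0.377).

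Samples of the same replicate number share a dated day, and with the replicate as a block edgeR called 4 of 10 members against a background of 14.8% of genes (7.97% higher and 6.86% lower). NEFM rose by 0.95 ± 0.11 on the log2 scale (adjusted p = 5.91e-07), NEFL rose by 0.49 ± 0.12 (adjusted p = 0.00679) and STMN2 rose by 0.40 ± 0.087 (adjusted p = 0.00233). PRPH fell by 1.38 ± 0.33 (adjusted p = 0.00496). The other members missed the threshold in the edgeR fit with the block, with log2 differences of 0.22 ± 0.087 for DCX (adjusted p = 0.0901), 0.21 ± 0.082 for MAP2 (adjusted p = 0.0867) and −0.22 ± 0.11 for INA (adjusted p = 0.188). MAPT (−0.060 ± 0.088), NEFH (−0.052 ± 0.27) and TUBB3 (0.11 ± 0.092) lay closer to 0. This fit has 1 residual degree of freedom.

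Where no block was used, these differences moved with the sample left out, which also left the groups unbalanced by day. NEFM ran from 0.31 to 1.61 and STMN2 from 0.315 to 0.478. Without PP121 replicate 1, NEFM (1.43, adjusted p = 0.000324) and NEFL (0.71, adjusted p = 0.0393) were called by edgeR without a block, and without PP121 replicate 2 the NEFM difference was 0.31 (adjusted p = 0.757). With every nucleus thinned to 2000 UMIs and the block, NEFM (1.01) and STMN2 (0.41) were called, while NEFL (0.54, adjusted p = 0.0538) and PRPH (−0.93, adjusted p = 0.273) were not in edgeR. DESeq2 with the block at full depth likewise called NEFM and STMN2 and not NEFL (adjusted p = 0.163), and it gave PRPH no adjusted p.

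The authors drew the classes on these samples, so neurons were also taken by 1 rule applied to all samples, from the study's neuron genes other than the members. This rule returned 85.3% to 93.5% of the deposited neurons, and 7.84% to 15.9% of the nuclei it took were deposited progenitors. With it and the block, edgeR called the same 4 members, NEFM (0.93), NEFL (0.56), STMN2 (0.37) and PRPH (−1.31).

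**Figure D3:**
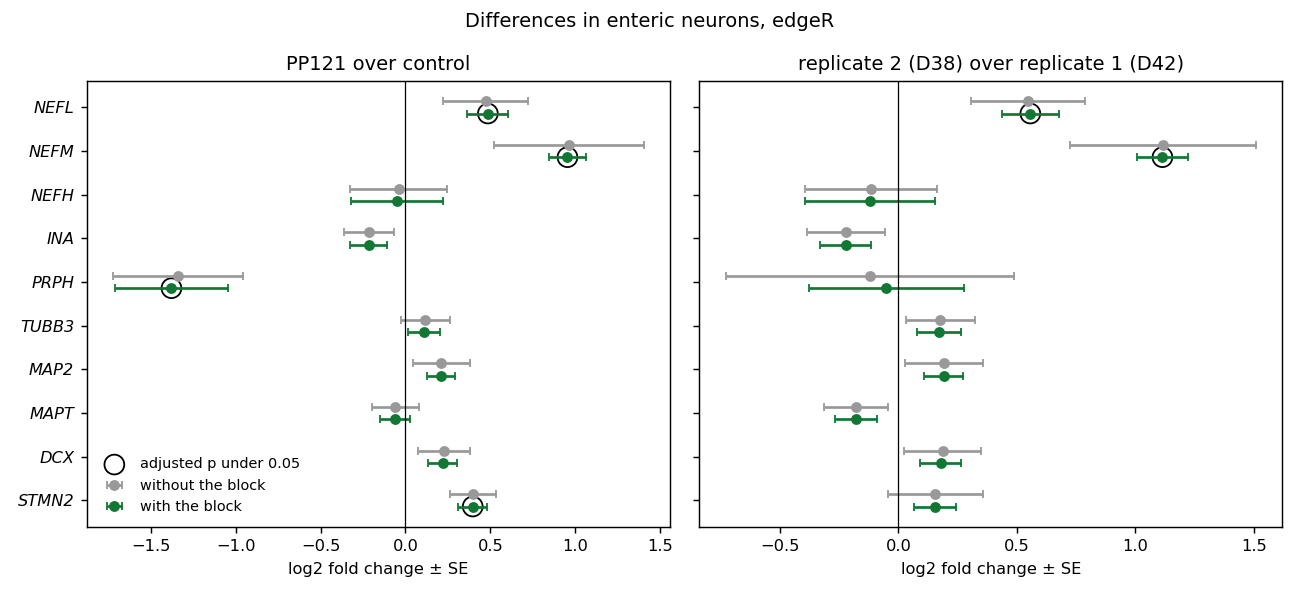
Log2 fold change with its standard error for each member in enteric neurons, PP121 over control on the left and replicate 2 over replicate 1 on the right, without the block (grey) and with it (green); open rings mark an adjusted p under 0.05. Rings surround NEFL, NEFM, PRPH and STMN2 on the left and NEFL and NEFM on the right, all of them in the fit with the block.

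The D38 samples were compared with the D42 samples in the same way. NEFM was higher on D38 in both treatments, 2.06-fold in control and 2.09-fold in PP121 neurons, and NEFL was 1.48-fold and 1.35-fold higher. INA was 0.820 and 0.826 times, and MAPT 0.859 and 0.835 times, their D42 levels. Neither D38 sample overlapped the D42 samples for these 4 of 10 members, against 39% of genes tested (14.2% above and 24.8% below). DCX, the marker of young neurons, was 1.01-fold and 1.17-fold higher on D38, and STMN2 1.06-fold and 1.08-fold. These day differences for DCX and STMN2 left the groups overlapping.

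Without a block edgeR called no gene for D38 against D42 in neurons (0%, with 1574 genes or 7.41%, and only NEFM among the members, at an unadjusted p under 0.05), and DESeq2 called 59 genes and no member. With the treatment as a block, which is the same model as the replicate block, 2 of 10 members were called against a background of 9.49% of genes (5.81% higher on D38). NEFM was higher on D38 by 1.11 ± 0.11 (edgeR adjusted p = 3.67e-08) and NEFL by 0.56 ± 0.12 (edgeR adjusted p = 0.0027). NEFL was not called between days after thinning with the block (0.50, edgeR adjusted p = 0.113) or by DESeq2 with the block (adjusted p = 0.133). Leaving out a sample, without a block, moved the day difference of NEFM between 0.56 (without PP121 replicate 2) and 1.66 (without PP121 replicate 1), and NEFM was called by edgeR only without control replicate 2 (1.53, adjusted p = 0.0375). That of NEFL moved between 0.30 (without control replicate 1) and 0.84 (without PP121 replicate 1). INA stood at −0.22 ± 0.11 (edgeR adjusted p = 0.214), MAPT at −0.18 ± 0.088 (adjusted p = 0.220), DCX at 0.18 ± 0.087 (adjusted p = 0.218) and STMN2 at 0.15 ± 0.087 (adjusted p = 0.299). PRPH had no stable direction between days, at 0.691 times its D42 level in control and 1.59 times in PP121 neurons.

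Levels over all annotated nuclei, which mix the classes, were also compared between days. DCX measured 315 and 304 CPM there on D42 against 265 and 296 on D38, and MAP2 921 and 900 against 831 and 879, both without overlap. NEFH, INA, TUBB3, MAPT and STMN2 were likewise lower on D38 without overlap, so the drop was not particular to DCX and MAP2. How many of all genes did so was not counted. The share of neurons among annotated nuclei was 53.7% and 44.3% on D42 and 41.3% and 33.5% on D38. NEFM was higher with PP121 over all annotated nuclei too, at 20.5 and 30.4 CPM in control and 34.5 and 55.5 CPM in PP121 samples.

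The share of neurons in which a member was detected was compared after each nucleus was thinned to 2000 UMIs, which left out 2 to 10 neurons per sample. A UMI of NEFM was seen in 4.89% (95% exact interval 4.04 to 5.85) and 8.34% (6.86 to 10.0) of control neurons, against 8.79% (7.60 to 10.1) and 16.9% (14.6 to 19.4) with PP121. STMN2 was seen in 34.4% and 33.8% of control neurons against 39.2% and 41.3% with PP121, and DCX in 55.1% and 56.8% against 58.1% and 63.3%. For these genes the PP121 shares lay above the control shares, for NEFM only narrowly. Those of NEFM overlapped without thinning and after thinning to 4000 UMIs. How many of all genes had shares apart in this way was not counted.

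In mesenchymal nuclei, taken as a non-neuronal comparison, the shares of replicate 2 were 1.48% in control and 2.86% in PP121 for NEFM and 3.46% and 4.05% for STMN2. MAP2 was seen there in 26.2% and 30.7% of nuclei, against 81.9% to 87.2% of neurons. Whether these UMIs were stray RNA or low expression was not tested. PRPH was seen in 0.346% to 0.917% of neurons and NEFH in 0.791% to 1.13%, and MAPT in 39.8% and 35.7% of control neurons against 37.2% and 31.6% with PP121.

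On average a thinned neuron held a UMI of 2.65 and 2.64 of the 10 members in control ganglioids, against 2.74 and 2.92 after PP121. At least 1 chain of the triplet NEFL, NEFM and NEFH was found in 9.25% and 13.5% of control neurons against 13.8% and 23.9% with PP121. With 2 samples against 2 an exact two-sided permutation test cannot go below p = 0.333, and no share reached less, with an adjusted p of at least 0.741 for PP121 and 0.833 for the day over the tested shares.

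**Figure D4:**
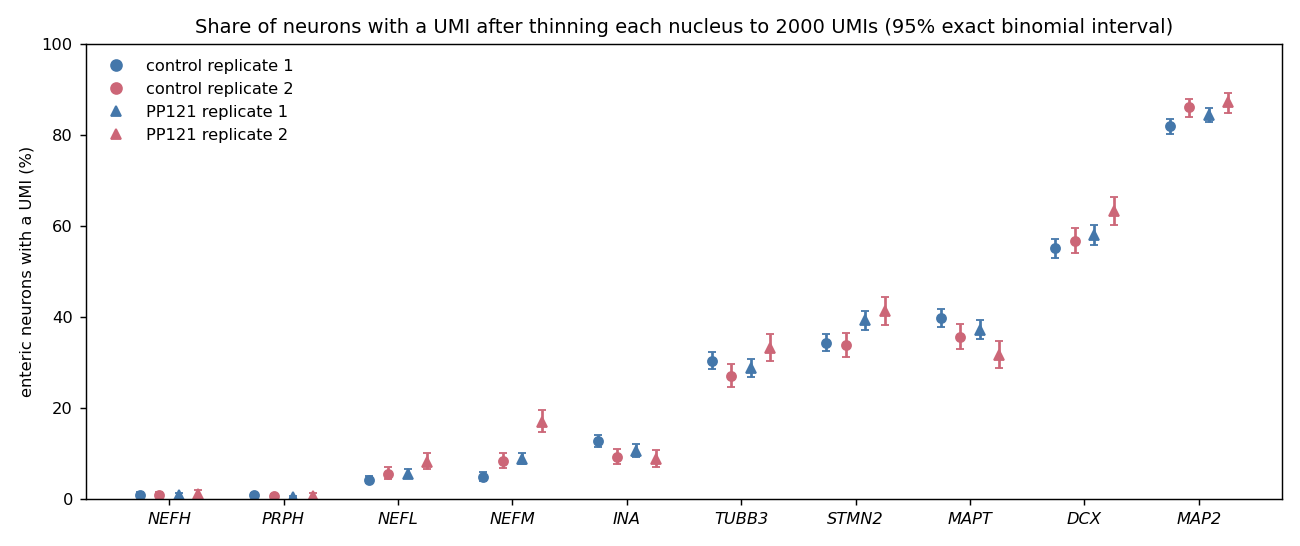
Percent of enteric neurons with at least 1 UMI of each member after thinning to 2000 UMIs per nucleus, by sample (circles control, triangles PP121, blue replicate 1, red replicate 2); bars are 95% exact binomial intervals, which cover counting error only. For NEFM, PP121 replicate 2 (16.9%) stood above the other samples, of which control replicate 1 was lowest (4.89%).

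In progenitors NEFM was again higher in both PP121 samples, and this was not particular to them. Mesenchymal nuclei had 5.61 and 8.01 CPM of NEFM in control and 10.1 and 17.6 CPM in PP121 samples. In unknown nuclei both PP121 samples also lay above control, and in epithelial nuclei the groups overlapped. NEFM was 12.9 and 9.53 CPM in control and 21.8 and 31.2 CPM in PP121 progenitor 1, from 38 to 153 UMIs. DCX in progenitor 1 was 64.4 and 56.2 CPM in control and 97.0 and 106 CPM in PP121 samples. NEFL, NEFH and MAPT were also above both control samples, so 5 of the 9 members tested in progenitor 1 had groups apart, against 28% of 16083 genes (16.8% above). PRPH was not tested there.

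Without a block edgeR called no gene for PP121 in progenitor 1 (0%, with 621 genes or 3.86% at an unadjusted p under 0.05), and DESeq2 called 1 gene and no member. With the replicate block NEFM (1.18 ± 0.27, adjusted p = 0.00133) and DCX (0.73 ± 0.19, adjusted p = 0.00491) rose in progenitor 1, 2 of 9 members against 3.69% of genes (2.9% higher), and neither passed in edgeR after thinning (adjusted p of 0.172 and 0.0574). In progenitor 2, NEFM was 7.94 and 7.77 CPM in control and 10.8 and 18.2 CPM in PP121 samples, from 42 to 118 UMIs. It rose by 0.85 ± 0.24 with the block (edgeR adjusted p = 0.0192), 1 of 9 members against 6.71% of 18885 genes (4.38% higher), and without a block none of the 18885 genes was called by edgeR (1774 or 9.39% at an unadjusted p under 0.05) and 98 by DESeq2, no member among them. NEFL measured 6.15 and 5.00 CPM in control and 9.71 and 10.0 CPM in PP121 progenitor 2 (0.84 ± 0.28, edgeR adjusted p = 0.0524).

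Between days, progenitor 1 had MAP2 at 457 and 383 CPM on D42 and 503 and 626 CPM on D38, and STMN2 at 48.8 and 71.1 CPM on D42 and 25.1 and 39.4 CPM on D38. With the treatment block MAP2 was higher on D38 by 0.58 ± 0.15 (edgeR adjusted p = 0.00147), and STMN2 was lower with a log2 difference of −0.75 ± 0.21 (edgeR adjusted p = 0.00710). These were 2 of 9 members against 14.6% of genes (8.95% higher and 5.66% lower), and without a block edgeR called no gene (3106 or 19.3% at an unadjusted p under 0.05) and DESeq2 461, no member among them. In progenitor 2 no member was called between days, with 4.81% of genes called with the block, none without it (1219 or 6.45% at an unadjusted p under 0.05) and 64 by DESeq2. Whether the PP121 difference of a member differed between neurons and progenitors was tested as an interaction over both progenitor classes, and edgeR called none of 21787 genes (0%, with 709 at an unadjusted p under 0.05) and no member, with and without the sample as a block. MAP2 had the smallest member p in the fit with the block (0.32 ± 0.14, adjusted p = 0.490). On simulated counts the interaction fit without the block recovered 10 of 100 genes changed 2-fold and 80 of 100 changed 4-fold. Its lack of calls therefore does not show that the differences were alike in neurons and progenitors.

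The deposited annotation also gives neurons a transmitter identity, and a nucleus can hold several. Identities were set by the authors from imputed expression, which draws on all genes, so what follows describes them. In glutamatergic neurons NEFM was 2.03 to 2.60 times its level in the other neurons of the same sample and in catecholaminergic neurons 1.70 to 2.05 times, whereas in nitrergic neurons it was 0.474 to 0.694 times. The glutamatergic neurons of PP121 replicate 2 had 133 CPM of NEFM and its other neurons 54.9 CPM.

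The identities took different shares of neurons in each sample. A glutamatergic identity was held by 25.0% (D42) and 44.2% (D38) of control neurons, against 36.2% and 66.1% with PP121. A catecholaminergic identity was held by 18.2% and 37.6% of control neurons, against 35.0% and 43.8% with PP121. Over the 4 samples both shares had the order of the NEFM level in neurons, lowest in control replicate 1, then PP121 replicate 1, control replicate 2 and PP121 replicate 2, and their part in that level was not tested. NEFM was higher in the PP121 sample of each day inside all 6 identities, 1.68-fold to 2.49-fold on D42 and 1.61-fold to 2.81-fold on D38, and higher on D38 in both treatments inside all 6. These 6 groups share nuclei, so they are not separate observations. In PP121 replicate 2 only 91 nuclei were nitrergic and 93 cholinergic. NEFL was higher with PP121 on both days inside 5 of 6. The exception was the nitrergic neurons, where its PP121 level was 0.977 and 0.591 times that of control. STMN2 was higher with PP121 on both days in all 6. PRPH, with few UMIs, was lower with PP121 on both days in only 3 of 6. On D38 it was higher with PP121 in cholinergic (1.46-fold), GABAergic (1.56-fold) and serotonergic neurons (1.38-fold).

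**Figure D5:**
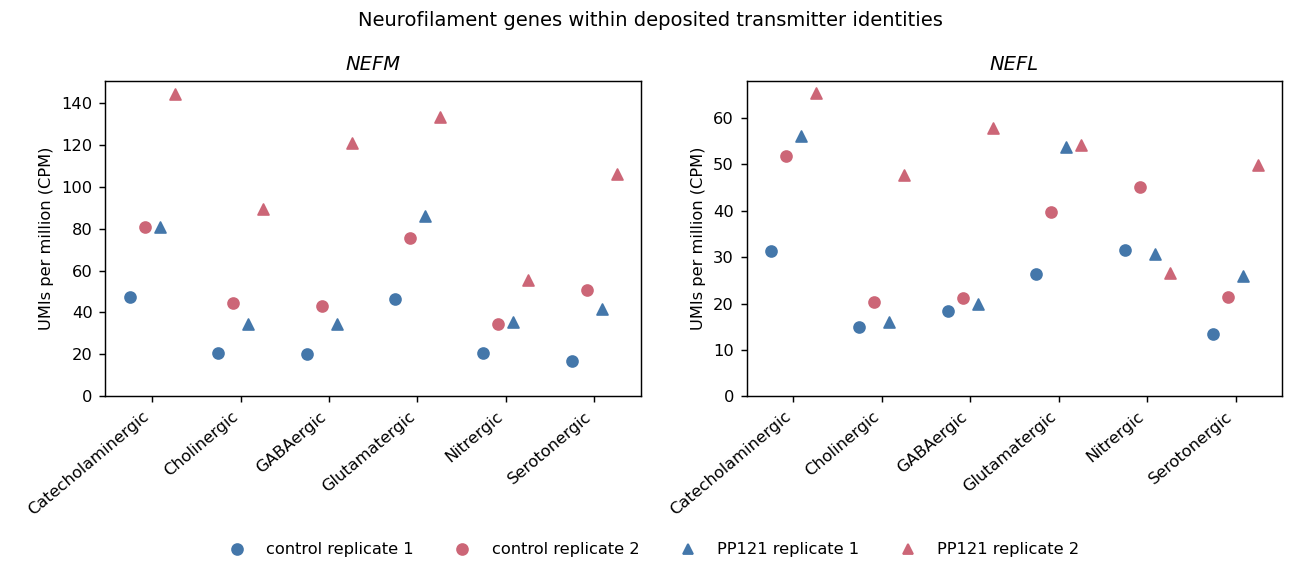
Levels in CPM of NEFM (left) and NEFL (right) within neurons of each deposited transmitter identity, by sample (circles control, triangles PP121, blue replicate 1, red replicate 2). NEFM in nitrergic neurons ran from 20.4 CPM in control replicate 1 to 55.7 CPM in PP121 replicate 2, and in glutamatergic neurons from 46.6 to 133 CPM in the same samples.

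Nitrergic neurons, which make nitric oxide, had a profile of their own among the members. TUBB3 was 0.537 to 0.753 times its level in other neurons of the sample, and MAPT was 1.11 to 1.35 times and STMN2 1.16 to 1.44 times. DCX (0.816 to 0.863 times) and MAP2 (0.764 to 0.883 times) were lower in the nitrergic neurons of all 4 samples. With the sample as a block edgeR called 4 of 10 members against 12.3% of 17714 genes. STMN2 was higher by 0.42 ± 0.082 (adjusted p = 0.00430) and MAPT by 0.35 ± 0.082 (adjusted p = 0.0124), while TUBB3 (−0.61 ± 0.090, adjusted p = 0.000654) and NEFM (−0.72 ± 0.11, adjusted p = 0.000988) were lower. In the same fit 12 of 14 tested genes of a list of young neurons were lower and none higher in nitrergic neurons, and 6 of 15 genes of synapses and later neurons were higher and 1 lower. The identity rests on imputed NOS1 and a score of nitric oxide genes, so these p-values describe groups drawn in part from the same counts.

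The authors numbered neuron subtypes separately in control (EN 1 to EN 8) and PP121 samples (EN A to EN I), so subtypes were described within samples, for those with at least 50 nuclei. EN 6 in control and EN F in PP121 samples had the lowest levels of INA, MAPT and STMN2 in all 4 samples, with MAPT from 65.5 to 168 CPM. EN 2 and EN B were highest for TUBB3 (309 to 392 CPM) and MAP2 (1483 to 1976 CPM). The highest subtype of NEFL was 4.66 to 13.3 times its lowest within a sample, against 1.57 to 1.97 times for DCX.

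The pathway was widened to lists of other genes, counted in the edgeR fits with the block, where 7.97% of all genes were called higher and 6.86% lower with PP121. Of 17 other tubulins and microtubule-associated proteins, 4 were higher and 3 lower in PP121 neurons, with a median log2 difference of −0.011 against −0.0055 over all genes. MAP6, a stabiliser of microtubules, rose by 0.40 and MAP1B by 0.37, while the tubulin TUBB2A fell by 0.50. Of 13 genes of the axonal scaffold and transport, 4 were higher and none lower (median 0.080): the growth cone protein GAP43 (0.57, edgeR adjusted p = 0.000148), NFASC (0.38), DST (0.30) and ANK3 (0.27), the last being the ankyrin of the axon initial segment.

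Genes of young neurons and genes of synapses and later neurons were counted as separate lists. Of 15 genes of young neurons 5 were higher and 1 lower with PP121 (median 0.17), with NEUROD4 at 0.74, IGFBPL1 at 0.43 and ELAVL3 at 0.37 higher and SOX4, with a fall of 0.44, lower. Of 15 genes of synapses and later neurons 2 were higher and 5 lower (median −0.20). RBFOX1, a splicing factor of differentiated neurons, rose by 0.93, whereas the synaptic vesicle protein VAMP2 fell by 0.91, CAMK2A fell by 0.72 and UCHL1 fell by 0.51. The summed level of the second list was nonetheless 2075 and 1806 CPM in control and 2488 and 2716 CPM in PP121 neurons, and that of the first was 1912 and 1724 CPM in control and 1503 and 1826 CPM in PP121 neurons. For the later genes the count and the sum thus pointed in opposite directions, and the sum of the young genes was lower with PP121 on D42 and higher on D38. In unknown nuclei the sum of the later genes was 2509 and 2143 CPM in control and 3898 and 2924 CPM in PP121 samples. That lay above neurons in every sample, so this sum is not particular to neurons.

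On D38, 7 of 15 genes of young neurons were higher and none lower, with a median of 0.50 against −0.014 over all genes, of which 9.49% were called and 5.81% were higher. The summed level of this list, given above, was lower on D38 than on D42 in control neurons and higher in PP121 neurons. The called genes with the smallest p were the transcription factors NEUROD4 (1.70), HES6 (0.71) and SOX11 (0.43) and the neuronal RNA-binding protein ELAVL4 (0.82). Of the 15 later genes, VAMP2 was lower by a log2 difference of −0.68 and none was higher (median −0.24). Among scaffold genes GAP43 (0.61), DST (0.45) and NFASC (0.30) were higher and SPTBN4 (−0.43) was lower, and among microtubule genes MAP7 (0.71), MAP1B (0.39) and MAP4 (0.36) were higher and TUBB2A (−0.43) lower. Without the block no gene of any list was called in either comparison.

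Markers of other cells were counted in the same neurons and fits, in which 7.97% of all genes were higher with PP121 and 5.81% on D38. Summed markers of glia and progenitors were at 242 and 324 CPM in control and 284 and 422 CPM in PP121 neurons, and 2 of 9 tested rose with PP121 and 3 on D38 in the fit with the block. Summed mesenchymal markers were at 152 and 200 CPM in control and 164 and 230 CPM in PP121 neurons, and 4 of 13 rose with PP121 and 6 on D38, where COL3A1 was higher by 2.42. The study's own progenitor markers, which helped to draw the classes, were at 418 to 468 CPM, with 1 of 7 higher and 1 lower with PP121 and 4 higher and 1 lower on D38. Its neuron markers other than the members were at 8281 and 7093 CPM in control and 10010 and 7823 CPM in PP121 neurons, with 3 of 9 higher with PP121. Epithelial markers were at 8.22 to 10.0 CPM in neurons. No marker of these lists was at 0 in the neurons of any sample. S phase was assigned to 35.2% and 37.4% of control neurons against 25.6% and 22.8% of those given PP121. The part of these markers and phases in the differences of the members was not tested.

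Finally, genes with a pattern like each member were sought over 18 sums of class and sample that held at least 50 nuclei, among 11570 genes with a mean of at least 10 CPM. The sums share libraries and depth, and the correlations (Pearson's r of log levels across sums) are descriptions. NEFL was most like NEFM (r = 0.916), and NEFM most like the adenylyl cyclase ADCY8 (r = 0.925). MAP2 was most like MAP6 (r = 0.969) and TUBB3 most like NFASC (r = 0.978), both genes of the cytoskeletal lists above. DCX was most like the neuronal splicing regulator SRRM4 (r = 0.977), MAPT most like the transcription factor MYT1 (r = 0.975), INA most like ATCAY (r = 0.979) and STMN2 most like MAST1 (r = 0.979). NEFH and PRPH were below the level needed.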

How the data were processed

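snRNA-seq was done on 4 samples with 10x droplet libraries, and the deposited UMI counts per gene and nucleus were used as given. The study's methods name kallisto and bustools, and the submitters' processing notes name Cell Ranger, Seurat 4.0.4 and GRCh38. Whether introns and strand were counted is not given in the sources used here, so overlapping and antisense genes are uncertain. Cell classes, days, phases and identities were taken from the deposited annotation, and the deposited percent of mitochondrial and ribosomal counts was read as a description. For both controls, a column of sample names in that annotation disagrees with the labels, and groups and replicates follow the labels. Nuclei that the authors marked as filtered were dropped, and no doublet caller was run beyond their limits. The members and gene lists were chosen with earlier results of these data known. The named genes were the members and, per list, up to 4 called genes with the smallest p in the fit with the block.

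Counts were summed per class and sample and tested with edgeR 4.0.16 (quasi-likelihood, two-sided, TMM, filterByExpr, Benjamini-Hochberg) in R 4.3.3, without a block. Same-numbered replicates share a dated day, and their deviations from group means correlated at 0.608, 0.580 and 0.452 in neurons, progenitor 1 and progenitor 2, so the replicate block is given where it changes a call. P-values of the fits without a block measure the spread between these samples, with dispersions that borrow from other genes. Those of the fits with the replicate or treatment block, with 1 residual degree of freedom, rest largely on that borrowing. The nitrergic and interaction fits use several sums from each sample. On simulated counts for neurons, PP121 against control recovered 57 of 100 genes changed 2-fold and 95 of 100 changed 4-fold, and 90 and 100 with the block. Unchanged genes called were 25 without the block and 10 with it. The changed genes were drawn from those with higher counts, so the rates do not cover sparse members such as PRPH. No day effect was simulated. Dispersions came from the model that was then tested, so the gain with the block is partly built in. Alternatives were DESeq2 1.42.0 and its size factors, other filters, thinning to 2000 UMIs, dropping the deepest 5% of nuclei, 1 rule for neurons, and leaving out each sample.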

Additional observations from a re-analysis of the deposited data

Results flagged for a closer look

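Neurons were set against progenitor 1 and progenitor 2. For 3 members the PP121 direction in neurons was opposite on both days to that in 1 of these classes. Other pairs of classes were not searched, and how many of all genes had such opposite directions was not counted. INA was lower with PP121 in neurons (log2 −0.26 on D42 and −0.25 on D38) and higher in progenitor 1 (0.24 and 0.88), so that neurons minus progenitor 1 came to a mean of −0.81. MAPT was lower in neurons (−0.078 and −0.12) and higher in progenitor 1 (0.35 and 0.69), with a mean difference of −0.62. MAP2 was higher in neurons (0.15 and 0.19) and lower in progenitor 2 (−0.16 and −0.087), with a mean difference of 0.29. The difference between these pairs of classes was not tested, and the interaction over both progenitor classes together called no member.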

How the results depend on the processing

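Depth limits NEFH and PRPH most, each below 100 UMIs per sample in neurons, and 2 samples per group limit all tests. Members called were counted in each comparison, and none was called without a block in the analysis as designed. For PP121 in neurons the replicate block gave 4 members, also with DESeq2's size factors and with 1 rule for neurons, and 2 after thinning or with DESeq2. For D38 against D42 in neurons the block gave 2, also with size factors, 3 with 1 rule for neurons (MAP2 added) and 1 after thinning or with DESeq2. In progenitor 1 the block gave 2 for PP121, also with size factors, but 0 after thinning or with DESeq2, and 2 between days, also with size factors, after thinning or with no block and no filter, and 1 with DESeq2. In progenitor 2 it gave 1 for PP121, also after thinning or with no block and no filter, 2 with size factors and 0 with DESeq2. The fits with DESeq2, size factors or thinning together with the block were added after seeing the data. Leaving out a sample gave 0 to 2 members for PP121 in neurons (2 without PP121 replicate 1), 0 to 1 between days in neurons and in progenitor 1 (1 without control replicate 2), and 0 to 1 for PP121 in progenitor 1 and 2 (1 without PP121 replicate 1). All genes called for PP121 in neurons were 0 as designed, 69 with no filter, 102 with DESeq2, 640 to 3152 with the block and 0 to 1402 without a sample (1402 without PP121 replicate 1). Between days they were 0, 158, 59, 466 to 2015 and 2 to 271. In progenitor 1 and 2 the block called 75 to 593 and 239 to 1313 genes for PP121. The nitrergic comparison called 2172 genes as designed, 1193 after thinning and 1241 without PP121 replicate 1. Shares of neurons with a UMI lay apart between PP121 and control for NEFM, DCX and STMN2 after thinning, for 5 members without thinning (INA, PRPH, MAP2, DCX and STMN2), for INA, PRPH, DCX and STMN2 at 4000 UMIs, and for NEFM and STMN2 with 1 rule for neurons. No background over all genes was counted for these shares. Directions that turned were all of members not called: with PP121, leaving out a sample moved NEFH from −0.17 to 0.13 (0.0051 without PP121 replicate 1), TUBB3 from −0.035 to 0.26 and MAPT from −0.16 to 0.040 (0.023 without control replicate 1). Between days it moved PRPH from −0.77 to 1.12 (0.17 without PP121 replicate 2) and STMN2 from −0.059 to 0.36 (−0.025 without control replicate 1), PRPH was at 0.089 with DESeq2 and the block, and NEFH was at 0.16 after thinning with and without the block. The cause was not tested. Of the values for single members under all alternatives, 362 kept direction and side of the threshold, 49 passed it anew, 12 turned and 1 was lost, MAPT in nitrergic neurons without control replicate 2 (0.33). Leaving out a sample together with the block leaves no residual degree of freedom and was not run.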
